A study of Mus musculus with 9 samples.

Results

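Sorl1 and its relatives Sort1, Sorcs1, Sorcs2 and Sorcs3 encode the sortilin receptor family, whose members were chosen by gene symbol and make up 5 of the 25611 rows of the count table. The family was picked with the difference between the groups already known, so its values in that comparison are given as a description, with fold changes and errors and no test. Expression was read by RNA-seq of pancreatic islets taken at 4 weeks of age. Binding of Glis3, a Krüppel-like zinc finger transcription factor, was mapped by ChIP-seq in islets taken at 8 weeks. The RNA groups were 3 libraries of Pdx1-Cre;Glis3fl/fl mice (labelled knockout) and 4 of Glis3fl/fl mice (control), so every mouse carried the conditional Glis3 allele. The Cre driver acts in the pancreatic lineage marked by Pdx1. No group carried it without the conditional allele, so effects of Cre and of losing Glis3 cannot be told apart. The binding data were 1 list of 21254 peaks of 200 bp from Glis3-eGFP mice, pulled down with an antibody against GFP, and had no replicate.

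Sortilin family receptors are membrane proteins with a luminal Vps10p domain that binds cargo. They carry proteins between the trans-Golgi network, the cell surface, endosomes and lysosomes. Their cytosolic tails are read by adaptors at the Golgi and by the retromer, a coat that returns receptors from endosomes. SorLA, the product of Sorl1, also has the ligand-binding repeats of the lipoprotein receptor family and is best known for steering the amyloid precursor protein away from cleavage. Sortilin, the product of Sort1, also binds neurotensin and unprocessed neurotrophins. Sorcs1 lies at a locus linked to diabetes in obese mice.

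Total counts ran from 12099365 to 22578480 in labelled knockout libraries and from 18297697 to 48054551 in control libraries. Levels are TMM-normalised CPM, that is, counts scaled to a library size of 1000000. Exon lengths were not used here, so levels are compared between groups for each gene and never between genes. Insulin, glucagon and somatostatin transcripts were abundant in both groups, as the islet label says. Glis3 itself had 52.1, 52.7 and 57.8 CPM in labelled knockouts 1, 2 and 3, against 39.5, 46.8, 31.2 and 33.6 CPM in controls 1 to 4. It was therefore not lower in the libraries labelled knockout (log2 0.52, SE 0.14, edgeR adjusted p = 0.0257, with values of 0.0501 to 0.117 without labelled knockout 1 or 3 or control 3 or 4, 0.0616 with the replicate block and 0.00948 to 0.372 under all alternatives). Its reads are summed over all exons, deleted or not, so this value does not check the label. In bulk islets, more cells of a type and more RNA per cell cannot be told apart.

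Sorl1 was the family member that differed most between the groups. Its level was 177, 164 and 141 CPM in labelled knockouts 1 to 3. Its level in controls 1 to 4 was 24.1, 17.1, 19.2 and 20.6 CPM. The groups were far apart, and the lowest labelled knockout library stood above the highest control library many times over. The mean level was 160 ± 18.6 CPM in labelled knockout islets (SD, n = 3) and 20.2 ± 2.93 CPM in control islets (SD, n = 4). That is a 7.93-fold difference, or a log2 fold change of 2.99 with an SE of 0.14. The counts behind these levels were 2387, 3788 and 3173 in the labelled knockouts and 691, 879, 315 and 431 in the controls, so counting error was 2.05% at most in a labelled knockout library and 5.63% at most in a control library. The estimated variation of Sorl1 between mice of a group was 14.6%, close to the 15.5% of the trend for genes of its abundance. Among the 14529 genes tested, 126 others stood higher in labelled knockouts by a log2 fold change at least as large. Falls were not counted here. The gap kept its size whichever library was left out, with log2 fold changes from 2.91 to 3.08.

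**Figure D1:**
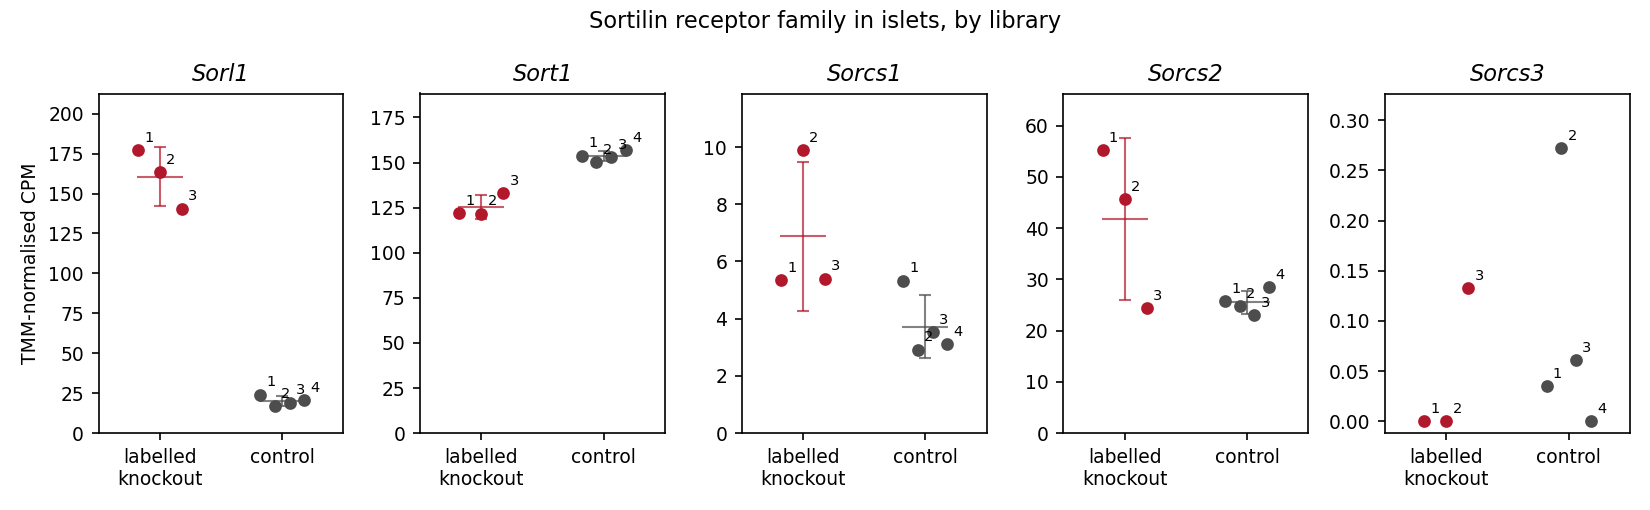
TMM-normalised CPM of the 5 receptor genes in each library, with labelled knockouts left of controls; numbers beside the points are replicate numbers, bars are mean ± SD (none for Sorcs3), and each panel has its own axis. The groups are widely separated for Sorl1 (141 to 177 against 17.1 to 24.1 CPM), narrowly for Sort1 and Sorcs1, and overlap for Sorcs2, where labelled knockout 3 lies among the controls.

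Sort1, the family's founding sorting receptor, differed in the other direction and by far less. Its level was 122, 122 and 133 CPM in labelled knockouts 1 to 3. Controls 1 to 4 had 154, 150, 153 and 157 CPM. All 3 labelled knockout libraries lay below all 4 controls, which were nearly level with each other. The means were 125 ± 6.59 CPM in labelled knockout islets (SD, n = 3) and 154 ± 2.7 CPM in control islets (SD, n = 4), and the log2 fold change was −0.29 (SE 0.11), or 1.22-fold lower. The size of this small difference moved with the scaling, to −0.12 when library size alone was used. That scaling shifted the median log2 fold change of all genes to 0.18, from 0.0065 with TMM factors, so relative to that median Sort1 stood about as low under both.

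Sorcs1, which encodes a receptor for neuronal cargo such as the neurotrophin receptor TrkB, had low counts throughout. Its level was 5.35, 9.89 and 5.4 CPM in labelled knockouts 1 to 3. Controls 1 to 4 had 5.33, 2.92, 3.53 and 3.11 CPM. The groups did not overlap, but labelled knockout 1 and control 1 were separated by less than their counting errors of 11.8% and 8.08%. The means were 6.88 ± 2.61 CPM in labelled knockout islets (SD, n = 3) and 3.72 ± 1.1 CPM in control islets (SD, n = 4). The log2 fold change was 0.89 (SE 0.32). Labelled knockout 2 carried a large share of that difference, and without it the log2 fold change was 0.53.

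Sorcs2, a receptor for unprocessed neurotrophins, also varied among the labelled knockout libraries. Its level was 55.2, 45.7 and 24.4 CPM in labelled knockouts 1 to 3. Controls 1 to 4 had 25.8, 24.8, 23.1 and 28.5 CPM. Labelled knockouts 1 and 2 stood above every control, whereas labelled knockout 3 lay within the control range, so the groups overlapped. The means were 41.8 ± 15.8 CPM in labelled knockout islets (SD, n = 3) and 25.5 ± 2.26 CPM in control islets (SD, n = 4). The log2 fold change was 0.70 (SE 0.21), 0.45 without labelled knockout 1 and 0.95 without labelled knockout 3. Its variation between mice of a group was 20.5%, above the 15.5% of the trend at its abundance.

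Labelled knockouts 1 and 2 and controls 1 and 2 had reads of Xist, the RNA that silences an X chromosome in female cells, and the other 3 libraries had at most 1 CPM. Within the 4 libraries with Xist reads, Sorcs2 averaged 50.5 CPM in labelled knockouts and 25.3 CPM in controls. Within the 3 libraries without them, it had 24.4 CPM in the labelled knockout and a mean of 25.8 CPM in controls. Sorl1 stood higher within both sets, at 170 against 20.6 CPM with Xist reads and at 141 against 19.9 CPM without. Sort1 stood lower within both, at 122 against 152 CPM with Xist reads and at 133 against 155 CPM without. Sorcs1 had 7.62 CPM in labelled knockouts against 4.12 CPM in controls with Xist reads, and 5.4 against 3.32 CPM without. Only 1 labelled knockout library lacked Xist reads, so the part of sex in the Sorcs2 values was not tested.

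Sorcs3, a relative of Sorcs1 on the same chromosome, was near the limit of detection. It had 0, 0 and 3 counts in labelled knockouts 1 to 3 and 1, 14, 1 and 0 counts in controls 1 to 4, so 14 of the 16 control counts came from control 2. A count of 0 allows a level of up to 0.223 and 0.13 CPM in labelled knockouts 1 and 2 and up to 0.144 CPM in control 4. Scaled to library size, the ratio of the pooled counts was 0.372, labelled knockout over control, with an exact 95% counting interval from 0.0695 to 1.3. No difference was detectable at this depth, and the gene did not pass the filter on low counts.

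Of the 5 members 4 were tested with all other genes, and 3 of these had groups that did not overlap, Sorl1 and Sorcs1 higher and Sort1 lower. Of all 14529 tested genes, 26.6% had groups that did not overlap. The family was chosen on this contrast, so nothing is read from that count.

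**Figure D2:**
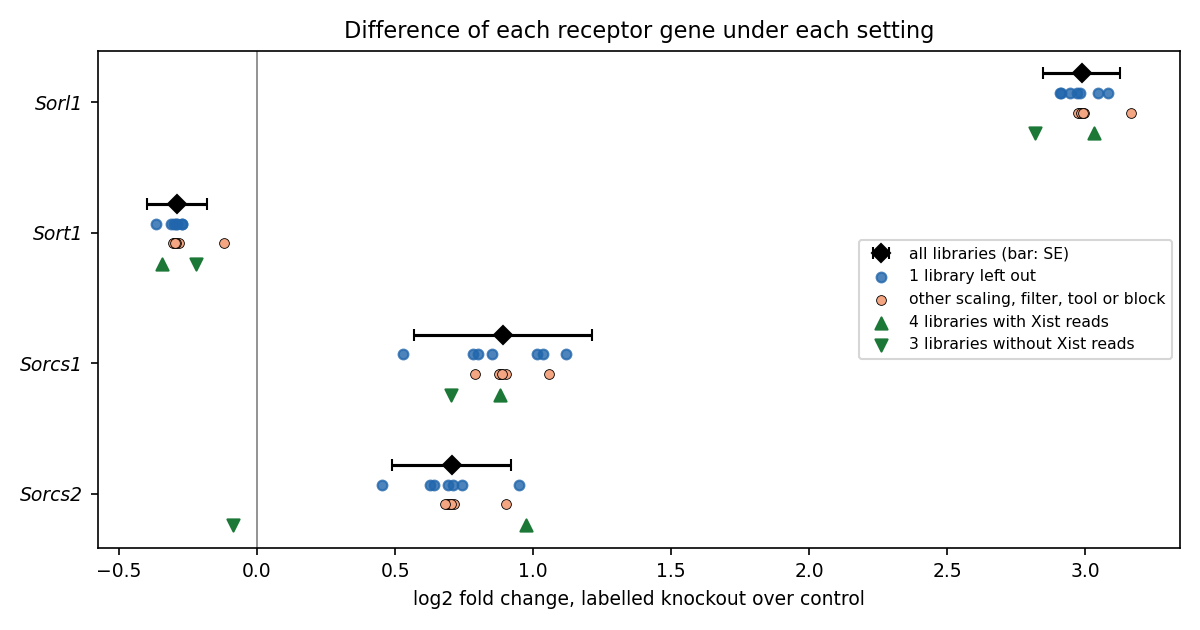
Log2 fold changes of the 4 tested receptor genes, labelled knockout over control, with all 7 libraries (diamond, bar: SE), with 1 library left out, under other scalings, filters, tools or the replicate block, and within libraries with or without Xist reads. Sorl1 stays near 3 throughout, Sort1 stays just under 0, and Sorcs2 spreads from −0.086 to 0.97.

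The genes whose profile over the 7 libraries was most like that of Sorl1 were Caly, Brinp2, Smoc1, Klhl1 and Pappa2. Likeness was the root mean square difference between profiles of log2(CPM + 0.5), each centred on its own mean, and it ranged from 0.185 for Caly to 0.255 for Pappa2. Caly, which encodes a vesicle protein of neurons, had 59.6, 53.4 and 44.9 CPM in labelled knockouts 1 to 3, against 8.53, 7.04, 7.92 and 8.85 CPM in controls 1 to 4. Like Sorl1 it was highest in labelled knockout 1 and lowest in labelled knockout 3 among the labelled knockouts. Pappa2, a protease of IGF binding proteins, averaged 2151 ± 103 CPM in labelled knockouts (SD, n = 3) and 223 ± 46.3 CPM in controls (SD, n = 4). Smoc1, a secreted calcium-binding matrix protein gene, averaged 50.9 ± 4.27 CPM in labelled knockouts (SD, n = 3) and 5.82 ± 0.804 CPM in controls (SD, n = 4). Brinp2, a gene of the nervous system, averaged 15.4 ± 2.34 CPM in labelled knockouts (SD, n = 3) and 1.37 ± 0.32 CPM in controls (SD, n = 4). Klhl1 had 2.6, 4.19 and 3.41 CPM in the labelled knockouts and no count in any control. Its likeness to Sorl1 therefore depends on the added 0.5 CPM, and its fitted log2 fold change was 9.43 (SE 0.97), against 2.99 for Sorl1. These genes were picked for their difference between the groups, and none lies on the chromosome of Sorl1.

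**Figure D3:**
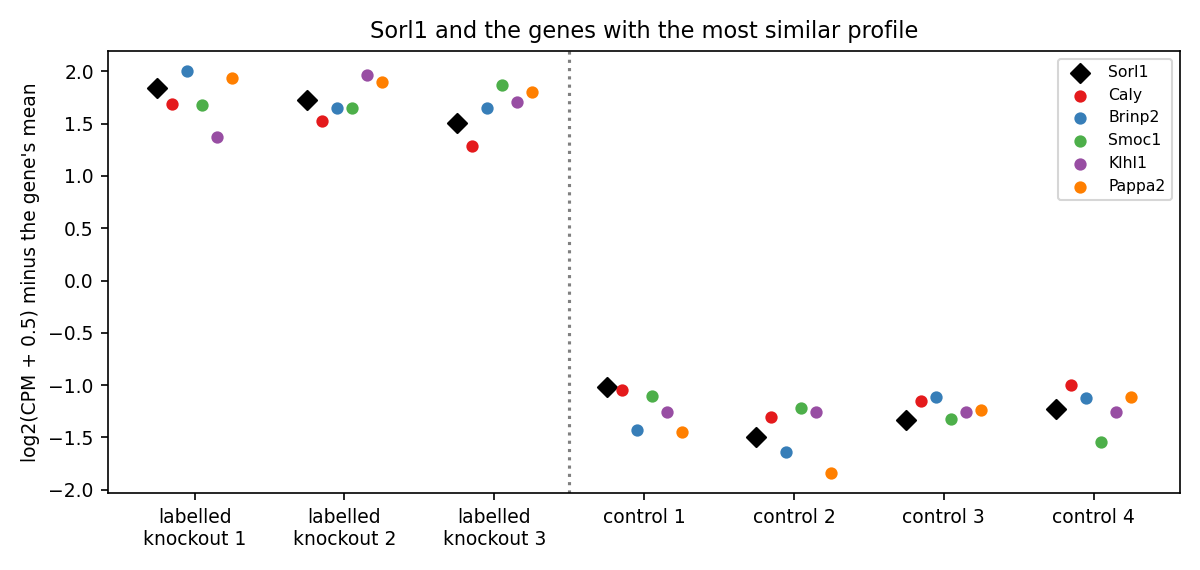
Centred log2(CPM + 0.5) in each library for Sorl1 (black diamonds) and the 5 genes with the most similar profile, labelled knockouts left and controls right of the dotted line. All 6 genes are high in the 3 labelled knockouts and low in the 4 controls, and Sorl1 is lowest in control 2.

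Sorl1 spans chr9:41964709-42124297 on the minus strand (mm10). The count table held 2 other genes within 200 kb of it. The first, 4930546K05Rik, had no count in any library. The second, Sc5d, encodes an enzyme of cholesterol synthesis and starts upstream of Sorl1. Sc5d stood at 21.5 ± 3.17 CPM in labelled knockouts (SD, n = 3) and 19.7 ± 0.728 CPM in controls (SD, n = 4), with a log2 fold change of 0.13 (SE 0.15, edgeR adjusted p = 0.625, 0.358 to 0.963 over the alternatives), and the groups overlapped. The large difference at Sorl1 was thus not seen in the other measured gene of that interval.

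Glis3 peaks lay at the 5′ ends of 4 of the 5 receptor genes. The nearest peak was centred 351 bp inside the Sorl1 span (chr9:42123847-42124046), 73 bp inside the Sort1 span (chr3:108284038-108284237), 684 bp inside the Sorcs2 span (chr5:36397356-36397555) and 191 bp before the Sorcs1 start (chr19:50678738-50678937). At Sorcs3, which was nearly silent, the nearest peak was 268357 bp from the 5′ end. A peak within 1 kb of the 5′ end was common in these data, since 71.2% of all tested genes had one. Peaks marked genes that stood higher (Sorl1) and lower (Sort1) in labelled knockouts alike.

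Within 100 kb of the gene spans there were 27 peaks, 5 at Sorl1, 9 at Sort1, 2 at Sorcs1, 9 at Sorcs2 and 2 at Sorcs3. Over all tested genes the median was 5 peaks, with quartiles of 3 and 7. Over the 2543 tested genes with a span at least that of Sort1, the shortest member, it was 4, with quartiles of 2 and 6. A peak overlapped the span of 80.3% of those long genes and of all 5 members. Of the 27 peaks 11 overlapped a span, and 6 of these were in Sorcs2. At Sorl1, a second peak lay 70.7 kb into the gene, 1 lay at −94.8 kb, before its start, and the others lay 189 and 234 kb downstream of the start, beyond the gene's end. For 4 of these 5 peaks, the 5′ end of Sorl1 was the nearest in the count table. The surroundings of Sort1 were different, since only 1 of its 9 peaks had the Sort1 start as its nearest 5′ end. Of the others, 1 lay 13580 bp from the nearest 5′ end, that of Celsr2, and the rest sat close to the starts of neighbouring genes, such as 34 bp from that of Psma5 and 52 bp from that of Cyb561d1. Sorcs1 spans 535346 bp and had just 1 peak besides that at its start, 347 kb into the gene. The list gives no score or height, so peaks could not be ranked.

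**Figure D4:**
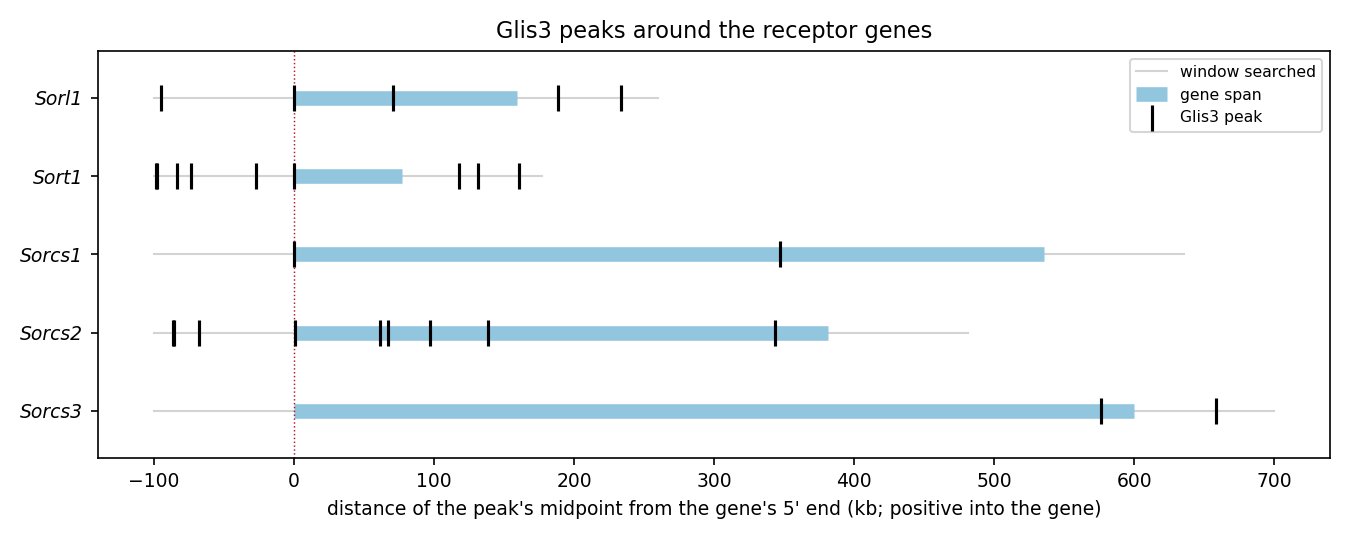
Position of each Glis3 peak within 100 kb of the 5 receptor gene spans, as the distance of its midpoint from the gene's 5′ end in kb, positive into the gene; bars are gene spans and thin lines the windows searched. Peaks stand at distance 0 in all genes but Sorcs3.

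The RefSeq table of promoters (GRCm38.p6, the assembly also named mm10) held 3 of the members, Sorl1, Sorcs1 and Sorcs3. The 250 bases before the start of Sorcs1 are shown because the peak at that gene covers 159 of them, which are in capitals (chr19:50678647-50678896, minus strand). The same stretch of Sorl1 (chr9:42124298-42124547, minus strand) is shown for the gene with the largest difference, and its peak lies just downstream of it. That of Sorcs3 (chr19:48205775-48206024, plus strand) is shown for the member with no peak near its start. In the last 2, capitals mark GGGCGG, the GC box of Sp-family factors, or GGGGGG, on either strand.
Sorcs1: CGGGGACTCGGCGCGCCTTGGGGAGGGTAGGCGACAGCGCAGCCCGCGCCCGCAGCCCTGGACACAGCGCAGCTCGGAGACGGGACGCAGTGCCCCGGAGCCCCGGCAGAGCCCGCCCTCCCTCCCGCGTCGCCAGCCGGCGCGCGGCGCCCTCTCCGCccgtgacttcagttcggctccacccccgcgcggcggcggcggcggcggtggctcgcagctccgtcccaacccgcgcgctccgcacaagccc
Sorl1: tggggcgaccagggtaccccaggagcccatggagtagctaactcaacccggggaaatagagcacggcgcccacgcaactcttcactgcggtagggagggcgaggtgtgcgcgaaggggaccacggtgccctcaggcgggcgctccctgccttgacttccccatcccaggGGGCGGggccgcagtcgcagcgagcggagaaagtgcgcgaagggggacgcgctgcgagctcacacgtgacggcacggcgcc
Sorcs3: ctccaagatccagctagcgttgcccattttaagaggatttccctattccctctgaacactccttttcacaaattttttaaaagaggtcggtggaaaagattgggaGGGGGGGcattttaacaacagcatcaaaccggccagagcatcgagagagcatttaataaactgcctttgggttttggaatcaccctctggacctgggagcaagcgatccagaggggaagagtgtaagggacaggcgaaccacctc

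The Sorl1 and Sorcs1 stretches were rich in CG, and that of Sorcs3 was not. They held 26 CG steps for Sorl1, 41 for Sorcs1 and 6 for Sorcs3, against a median of 6 over all 32851 stretches of the table. The G and C content was 69.6% for Sorl1, 79.6% for Sorcs1 and 48.4% for Sorcs3, against a median of 52.4%. TGGGGGGT, the core of the site described for Glis proteins, was in none of the 3 on either strand, and 1.36% of all stretches held it. The run GGGGGG, which lies within that core, was in Sorcs3 and in neither of the other printed stretches, and 16.2% of all stretches held it. GGGCGG was in Sorl1 1 time and in Sorcs1 2 times, and 32.7% of all stretches held it. The table holds a second start of Sorl1 inside the gene, and the 250 bases before it (chr9:42077214-42077463, not printed) had 9 CG steps, 47.2% G and C, 1 GGGGGG and neither of the other motifs.

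Genes of the pathway that the receptors serve changed in both directions. In 7 lists with 100 genes, 93 were tested, of which 15 rose, 8 fell and 70 did not pass (edgeR quasi-likelihood test, Benjamini-Hochberg adjusted p under 0.05 over all genes). That is 16.1% higher and 8.6% lower, beside 8.73% higher and 5.25% lower of all tested genes, or 1268 and 763. The median log2 fold change of the 93 was 0.062, and that of all tested genes 0.0065. Scaling by library size alone, which shifts all genes upward, gave 19 higher and 3 lower in the lists and 1854 higher and 324 lower over all genes. The 4 libraries with Xist reads, taken alone, gave 7 higher and 1 lower in the lists. Among the genes named here, Snx27, Plaur, Ret, Pcsk6 and Lrp11 kept their direction there but were not called, at edgeR adjusted p of 0.057, 0.0593, 0.0635, 0.098 and 0.0987 in that order, the highest over all alternatives for each but Snx27. Their lowest were 0.000291, 5.84e-07, 1.07e-06, 0.000471 and 1.52e-05. Ap1s1, Lrp5, Lrp1, Igf1r, Bdnf, Plau, Scarb2, Pacs1 and Glis3 also kept their direction in those 4 libraries without being called (edgeR adjusted p from 0.0896 to 0.372).

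Calls by edgeR adjusted p were few among the carriers that read the receptor tails. Retromer and sorting nexin genes had none higher and 7.14% lower. Golgi adaptor and clathrin genes had 5.88% in each direction, beside 8.73% higher and 5.25% lower of all tested genes. Of 14 retromer and sorting nexin genes 1 fell, 13 did not pass and none rose (edgeR; none higher at an unadjusted p under 0.05 and none by DESeq2), with a median log2 fold change of −0.19. At an unadjusted edgeR p under 0.05, 5 of the 14 were lower, a larger share than the 1832 of all 14529 tested genes. DESeq2 called 2 lower, Snx27 and Snx6 (adjusted p = 0.0486 for Snx6), beside 1090 lower over all genes. Snx27, which links cargo to the retromer, fell to 26.2 ± 1.64 CPM in labelled knockouts (SD, n = 3), against 38.4 ± 1.33 CPM in controls (SD, n = 4; log2 −0.55, edgeR adjusted p = 0.0066, and 0.155 scaled by library size alone, 0.000291 to 0.155 over the alternatives). The retromer core genes Vps35 (log2 −0.18, edgeR adjusted p = 0.379) and Vps26a (−0.44, edgeR adjusted p = 0.1) did not pass, and Vps26a passed without labelled knockout 3 (edgeR adjusted p = 0.0307). Of 17 genes of Golgi adaptors and clathrin, Ap1s1, an AP-1 subunit, rose (log2 0.45, edgeR adjusted p = 0.0163), Pacs1, a connector to furin and other cargo, fell (−0.47, 0.0428), and 15 did not pass, among them the receptor adaptor genes Gga1, Gga2 and Gga3. Ap1s1 lost its call without labelled knockout 2 or 3 or control 2 or 3, at edgeR adjusted p from 0.055 to 0.0603. Pacs1 lost it without labelled knockout 1 or 3 or control 2, 3 or 4, at 0.0774 to 0.144, and with library size alone, at 0.285. The range under all alternatives was 0.00202 to 0.0896 for Ap1s1 and 0.015 to 0.328 for Pacs1.

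Several genes for cargo of the receptors changed. Of 18 tested ligand and soluble cargo genes 5 rose, 2 fell and 11 did not pass, with a median log2 fold change of 0.31. That is 27.8% higher and 11.1% lower, beside 8.73% and 5.25% of all tested genes. With 1 library left out, 3 to 4 rose. Lpl, the lipoprotein lipase that SorLA and sortilin can carry to endosomes, fell to 134, 141 and 152.5 CPM in labelled knockouts 1 to 3, against 460.5, 390, 542 and 581 CPM in controls 1 to 4. The groups were well apart, and the difference was 3.46-fold (log2 −1.79, SE 0.15, edgeR adjusted p = 4.04e-06). Lrpap1, a chaperone that blocks ligand binding to SorLA and sortilin, rose to 248.7, 210 and 238 CPM in labelled knockouts 1 to 3, against 99.7, 87.8, 80.9 and 92.9 CPM in controls 1 to 4 (log2 1.36, SE 0.12, edgeR adjusted p = 5.18e-06).

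The other ligand genes that rose were Clu (log2 0.97, edgeR adjusted p = 0.00196), Aplp1 (0.59, 0.00377), Bdnf (1.62, 0.034) and Plau (1.83, 0.0466). Aplp1, Bdnf and Plau were named after their values were seen. Bdnf and Plau were low, at 2.96 ± 1.09 and 1.95 ± 0.83 CPM in labelled knockouts (SD, n = 3), against 0.951 ± 0.266 and 0.545 ± 0.115 CPM in controls (SD, n = 4). Bdnf kept its call without labelled knockout 1 but lost it without any other library, at edgeR adjusted p from 0.0517 to 0.147, and Plau lost it without any 1 of the 7, at 0.0518 to 0.193. With the replicate block these values were 0.0812 and 0.166, which left 3 of the list's 5 rises. Over the alternatives they ran from 0.00548 to 0.213 for Bdnf and from 0.00954 to 0.214 for Plau. App, the best known SorLA cargo, stood at 326 ± 29.6 CPM in labelled knockouts (SD, n = 3) and 267 ± 11.1 CPM in controls (SD, n = 4) and did not pass (log2 0.29, edgeR adjusted p = 0.121). It passed by DESeq2 (adjusted p = 0.0382) and with library size alone (edgeR adjusted p = 0.0258). Grn (log2 −0.23, edgeR adjusted p = 0.188) and Psap (−0.058, 0.815), whose products sortilin carries to lysosomes, did not pass. Nts, the neurotensin gene, had no count in any library.

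Of 11 genes for partners of the family, receptors but for the glucose transporter gene Slc2a4, 2 rose, 2 fell and 7 did not pass. Each direction held 18.2% of the list, beside 8.73% higher and 5.25% lower of all tested genes. Ntrk2, which encodes TrkB, rose to 239 ± 18.5 CPM in labelled knockouts (SD, n = 3), against 119 ± 20.5 CPM in controls (SD, n = 4; log2 0.9995, SE 0.14, edgeR adjusted p = 0.000324). Plaur, the urokinase receptor gene, rose at a low level (log2 2.65, edgeR adjusted p = 0.0015). Ret (log2 −0.64, edgeR adjusted p = 0.00223) and Igf1r (−0.68, edgeR adjusted p = 0.00476; 0.0503 with library size alone, 0.000191 to 0.129 over the alternatives) fell. The insulin receptor gene Insr did not pass (log2 −0.35, edgeR adjusted p = 0.146).

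Of 12 tested genes of the lipoprotein receptor family, with which SorLA shares its ligand repeats, 2 rose, 2 fell and 8 did not pass. The share was 16.7% in each direction, beside 8.73% higher and 5.25% lower of all tested genes. Lrp5 (log2 −0.62, edgeR adjusted p = 0.011) was among those that fell, and Lrp11 (0.47, 0.0114) and Lrp1 (0.63, 0.0304) rose. With library size alone Lrp5 was not called (edgeR adjusted p = 0.153; 0.000956 to 0.153 over the alternatives). Lrp1 was not called without labelled knockout 1 or control 1, 3 or 4 (edgeR adjusted p of 0.0644 to 0.157, with 0.0116 as the smallest under any alternative), and its log2 fold change without labelled knockout 1 was 0.34.

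Of 15 genes that cut the receptors or their cargo, 3 rose, 12 did not pass and none fell by edgeR. None was lower at an unadjusted edgeR p under 0.05 or by DESeq2. The rises were 20% of the list, beside 8.73% higher and 5.25% lower of all tested genes. Ncstn, a gamma-secretase subunit, rose to 241, 237 and 223 CPM in labelled knockouts 1 to 3, against 124, 120, 116 and 121 CPM in controls 1 to 4 (log2 0.96, SE 0.11, edgeR adjusted p = 4.36e-05). Bace2, a protease of the beta cell membrane related to Bace1, rose at a high level (log2 1.12, SE 0.14, edgeR adjusted p = 0.000105), and the convertase gene Pcsk6 rose by 0.74 (edgeR adjusted p = 0.00625). Furin, which removes the receptors' propeptides, did not pass (log2 −0.13, edgeR adjusted p = 0.508). Of 6 genes of the mannose 6-phosphate route to lysosomes and of Scarb2, 2 rose, 4 did not pass and none fell by edgeR. Again none was lower at an unadjusted edgeR p under 0.05 or by DESeq2. Here the rises were 33.3% of the list. Gnptg, which helps tag lysosomal enzymes, rose (log2 0.85, edgeR adjusted p = 0.000663). Scarb2, a receptor for a lysosomal enzyme, rose by 0.38 (edgeR adjusted p = 0.0435), a call lost with the replicate block (0.059) and without any 1 of the 7 libraries (0.0506 to 0.189; 0.00733 to 0.261 over the alternatives). The receptor genes M6pr and Igf2r did not pass.

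**Figure D5:**
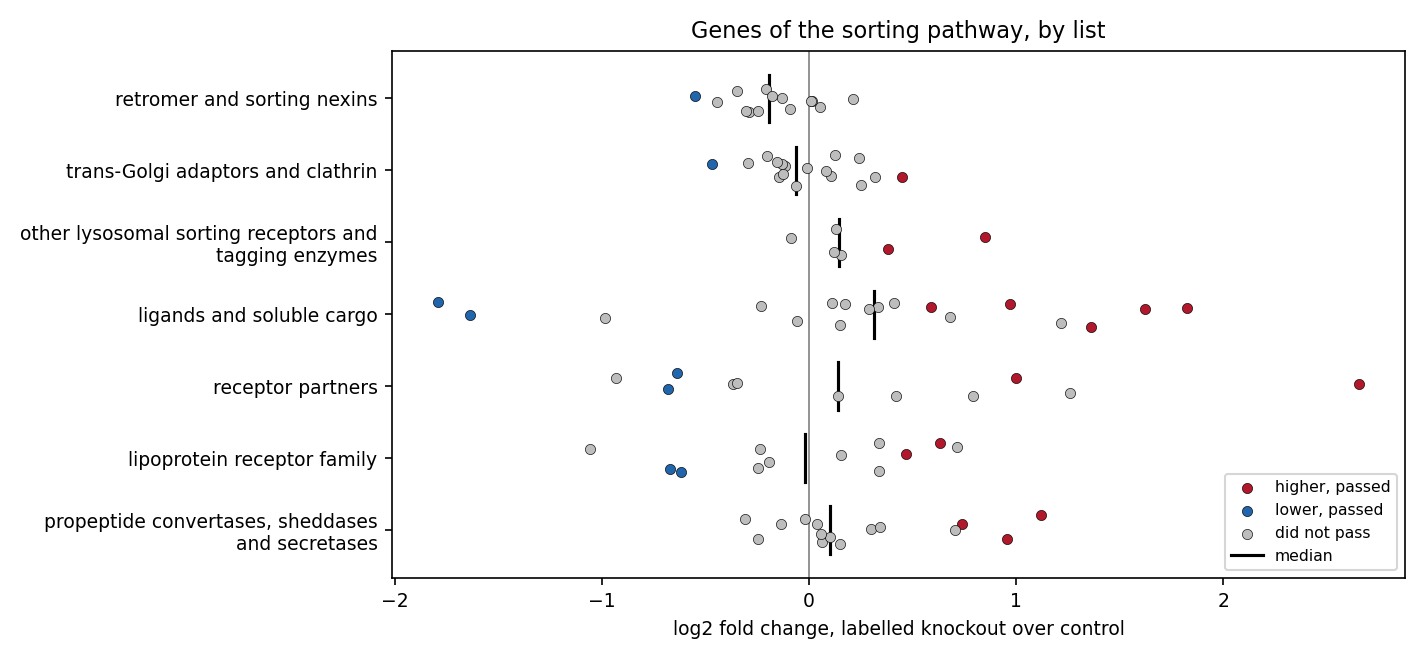
Log2 fold change, labelled knockout over control, of each tested gene of the 7 sorting pathway lists, coloured by whether it passed the test higher or lower (edgeR adjusted p under 0.05); black lines are list medians and the vertical spread carries no value. Carriers (the first 2 lists) lie between −0.55 (Snx27) and 0.45 (Ap1s1), and ligands and receptor partners spread from −1.79 (Lpl) to 2.65 (Plaur).

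Summed markers of other cell types also differed between the groups. The summed level of 10 leukocyte markers was 211 to 223 CPM in labelled knockouts and 119 to 156 CPM in controls, with 1 of 8 tested members higher. That of 7 duct markers was 773 to 957 CPM in labelled knockouts and 255 to 312 CPM in controls, with 1 of 6 higher (Spp1), and that of 7 fibroblast and stellate markers was 423 to 548 CPM in labelled knockouts and 286 to 376.8 CPM in controls, with 2 of 7 higher. Beta cell markers summed to 189400 to 299700 CPM in labelled knockouts and 329900 to 551000 CPM in controls, with 6 of 10 lower and 1 higher, and gamma cell markers to 1922 to 2565 CPM and 7848 to 14340 CPM, with 2 of 4 lower. The sums of acinar, alpha cell, delta cell, endothelial, and Schwann cell and neuron markers overlapped between the groups. No marker was at 0 in every library, and the leukocyte gene Ptprc, defining for that class, stood at 1.71 ± 1.33 CPM in labelled knockouts (SD, n = 3) and 1.98 ± 0.939 CPM in controls (SD, n = 4). The part of these cell types in the receptor values was not tested.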

How the data were processed

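Gene counts were deposited by the authors as raw whole numbers, per the file headers, beside gene symbols, Entrez numbers and coordinates. Per the submitters' processing notes, STAR 2.5, featureCounts 1.5.0-p1, Bowtie 1.2, HOMER 4.9.1 and mm10 were used, among other tools; settings, strand option and annotation are not given in the sources used here. Other values deposited by the authors were peak intervals with no score.

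From the counts, genes were filtered (filterByExpr), scaled (TMM) and tested by robust quasi-likelihood in edgeR 4.0.16 (R 4.3.3), labelled knockout over control, over 14529 genes. SEs were derived as |log2 fold change| divided by √F. The fit was tested on simulated data. Libraries are separate mice per the labels, and no 2 within a group were copies (chi-square per degree of freedom from 23.4 to 95.4). Floors are 3 counts, and intervals and floors cover counting error only.

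Same-numbered libraries deviated together (r = 0.173, 0.117 and 0.117 over genes for numbers 1, 2 and 3). However, labelled knockout 3 deviated more closely with control 4 (r = 0.157). The numbers were taken to pair the libraries in the replicate block alone, which left out control 4, as no labelled knockout shares its number. The main fit did not use the numbers, so its SEs and p-values take no account of such pairing. The labels give no reason for the shared deviations, though numbers 1 and 2 have Xist reads in both groups and number 3 does not.

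Members, lists and tests were chosen with earlier results of these data known. Named genes were the members, Glis3, up to 4 called genes per list with the smallest p, the 5 profiles most like that of Sorl1 (predicted genes left out) and genes within 200 kb of Sorl1. Peak distances run from a gene's 5′ end to the peak midpoint. Aplp1, Bdnf and Plau were named beyond this rule, and 2 genes that it names, counted in their lists, are not reported here. The alternatives tried were scaling by RLE factors or by library size alone, leaving out the 10 most abundant genes, 2 other filters, DESeq2 1.42.0, a replicate block, leaving out each library, other peak windows and, added after seeing the data, the libraries with and without Xist reads. The input library was not analysed here.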

Additional observations from a re-analysis of the deposited data

Results flagged for a closer look

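Sorcs2 was higher in labelled knockouts with Xist reads and not in the 1 without, a difference that was not tested. Its log2 fold change, labelled knockout over control, was 0.97 in the 4 libraries with Xist reads, where both labelled knockouts stood above both controls. It was −0.086 in the 3 libraries without them, where the 1 labelled knockout, at 24.4 CPM, lay between the 2 controls, at 23.1 and 28.5 CPM, so this value shows no difference in either direction.

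Clu, a sortilin ligand gene, had 1 control far from the others. Controls 1, 3 and 4 had 181, 172 and 175 CPM and control 2 had 121 CPM, a gap of 0.851 of the group's range, and all 3 labelled knockouts stood above these. Chance gives such a gap in about 1 in 20 groups.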

How the results depend on the processing

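Sorl1, Sort1 and Sorcs1 kept their direction under every alternative run. Sort1 ran from −0.36 to −0.27 with 1 library left out and was −0.12 with library size alone, −0.34 in the 4 libraries with Xist reads and −0.22 in the 3 without. Sorcs1 ran from 0.53 to 1.12 and Sorcs2 from 0.45 to 0.95 with 1 library left out, and Sorcs2 was −0.086 in the 3 libraries without Xist reads. Sorcs3 was −1.43 on the log2 scale from pooled counts, −1.74 to 0.74 with 1 library left out, and reversed to 0.74 without control 2, which held most of its counts. It gave no value with the 10 most abundant genes left out, the filter of 1 CPM in 3 libraries, DESeq2, the block, or without labelled knockout 3, which held all 3 labelled knockout counts, so that range covers 6 of the 7 omissions. Library size alone left 324 genes lower, 3 of them in the pathway lists. The 4 libraries with Xist reads gave 734 higher and 314 lower, 7 and 1 of them in the lists, with fewer samples. With 1 library left out, 934 to 1142 genes were higher and 541 to 825 lower, and 10 to 12 and 7 to 8 in the lists. With the replicate block 1342 genes were higher and 837 lower, and 13 and 8 in the lists. The block changed no other call of a named gene beyond those given above. Of the values of named genes outside the family under alternatives, 385 kept direction and call, 65 kept direction only and none reversed. The 27 peaks were 11 over the gene spans, 12 within 10 kb, 15 within 50 kb and 40 within 200 kb. Low counts limit Sorcs1 and Sorcs3.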
